A study of Homo sapiens with 6 samples.

Results

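The transforming growth factor beta (TGF-beta) and bone morphogenetic protein (BMP) pathway was examined in SKOV3, an established human ovarian cancer cell line, after siRNA against DNM3OS, a long non-coding RNA. A list of 48 genes was used, each found by its symbol among the 34834 annotated genes with a quantified transcript. The list holds 9 ligands, 7 extracellular regulators, 12 receptors and co-receptors, 8 SMADs, 5 intracellular regulators and 7 target genes. Of the 6 samples, 3 were transfected with 50 nM of a pool of 4 siRNAs against DNM3OS and 3 with 50 nM of a pool of non-targeting siRNAs, and total RNA depleted of ribosomal RNA was sequenced after 48 h. Both groups are the same line with the same transfection reagent, so the comparison covers 1 cell line, 1 siRNA pool and 1 time point. The labels do not say whether the replicates were separate cultures, and p-values then measure the spread between these samples, which may be technical.

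In this pathway, dimeric ligands bring together pairs of type I and type II serine/threonine kinase receptors, and the activated type I receptor phosphorylates a receptor-regulated SMAD. SMAD2 and SMAD3 act mainly downstream of TGF-beta and activin receptors, SMAD1, SMAD5 and SMAD9 downstream of BMP receptors, and all of them join SMAD4 before they act on target genes in the nucleus. SMAD6 and SMAD7 are inhibitory and are themselves induced by the pathway. In epithelial cancer cells TGF-beta signalling is a known inducer of the epithelial-to-mesenchymal transition, the process that the study linked to DNM3OS, and the comparison asks which pathway transcripts differed after the knockdown.

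The libraries held between 1610937 and 1995888 estimated counts, and 3 counts corresponded to 1.61 to 1.97 CPM (counts scaled to the size of the library). None of the 6 DNM3OS transcripts in the annotation matched a quantified transcript by identifier, so the level of the targeted RNA was not analysed here. DNM3OS knockdown replicate 1 stood apart: its gene counts differed from those of the other libraries by a chi-square of 5.50 to 13.1 per degree of freedom, against 2.04 to 4.58 among the other 5. Abundant housekeeping genes had few counts, with 27 to 414 for GAPDH and 36 to 181 for ACTB, whereas PLLP, which encodes a myelin and epithelial membrane protein, took 15.7% to 22.3% of all gene counts. BEST1, whose exons lie opposite to those of FTH1, held 26509 to 46756 counts against 85 to 550 for FTH1 itself. The kit keeps the strand of the RNA, but the strand option of the quantification is not stated, and reads from a gene and from its opposite strand cannot be told apart in these values. Counts high on BEST1 and low on FTH1, GAPDH and ACTB are the pattern that counting against the opposite strand would give, so any level below may be largely that of opposite-strand reads rather than of the named gene's own transcript. Which strand was counted was not tested, and 20 of the 48 pathway genes have exon bases overlapped by exons of another gene on the opposite strand.

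The housekeeping genes were also lower on average in the knockdown, but the groups overlapped in their summed level. The summed CPM of 8 of them, scaled to library size alone, was 264, 954 and 892 in the knockdown and 1988, 669.7 and 1516 in the controls. All 8 had a fold change below 0, with a median of -0.93 on the log2 scale. At an unadjusted p below 0.05 in edgeR's exact test, 3 of the 8 were lower, against 2.09% of all genes tested. For 1 of the 8 the groups did not overlap, against 3.56% of all genes tested that were lower without overlap. The share of gene counts on 77 ribosomal protein genes was 0.19%, 0.35% and 0.36% in the knockdown and 0.51%, 0.29% and 0.49% in the controls. Knockdown replicate 1 was the lowest library by both measures. Of the 10 markers of SKOV3 epithelial cancer cells, MUC1 was at 0 in every library and MSLN reached 1 count, and the summed CPM of the 10 was 1157 to 2096 in the knockdown and 1160 to 1703 in the controls. Most of this sum was KRT8, with 1684 to 2566 counts in the knockdown and 1195 to 2001 in the controls. Of the 7 markers that were tested, 5 had fold changes below 0 and 2 above. Among markers of other cells, the summed CPM in knockdown and control was 109.7 to 143 and 107 to 124 for 5 leukocyte genes, 16.6 to 35.9 and 19.0 to 26.8 for 4 endothelial genes, and 43.5 to 63.2 and 36.4 to 59.1 for 5 fibroblast genes. None of these genes of other cells was at 0 in all libraries, but VWF reached only 1 count, CD3E and KDR 2, LUM 3 and CDH5 4. The part of these genes in any result below was not tested.

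The promoters of 4 SMAD-regulated genes are shown because the transcripts of such genes are where a change in pathway activity would be read. ID1 and CCN2 (connective tissue growth factor) stand for BMP and TGF-beta targets, while SMAD6 and SMAD7 were added after their values had been seen, as the inhibitory SMADs that feed back on the pathway. Each is the run of 250 bases before the most upstream RefSeq start listed, 5′ to 3′ on the strand of the gene, from GRCh38.p14. Capitals mark TATAAA in ID1 and CCN2, the SMAD-binding core CAGAC in CCN2 and SMAD7, and the palindromic SMAD-binding element GTCTAGAC in SMAD6, each on either strand. In ID1 the 2 matches to TATAAA, 1 on each strand, overlap and lie 33 and 31 bases before the start.
ID1, chr20:31605039-31605288, plus strand: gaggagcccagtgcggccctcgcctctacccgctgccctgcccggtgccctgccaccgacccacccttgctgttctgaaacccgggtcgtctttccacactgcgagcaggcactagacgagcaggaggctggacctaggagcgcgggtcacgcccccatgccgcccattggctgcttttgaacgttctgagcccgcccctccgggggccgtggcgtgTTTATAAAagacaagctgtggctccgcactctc
CCN2, chr6:131951373-131951622, minus strand: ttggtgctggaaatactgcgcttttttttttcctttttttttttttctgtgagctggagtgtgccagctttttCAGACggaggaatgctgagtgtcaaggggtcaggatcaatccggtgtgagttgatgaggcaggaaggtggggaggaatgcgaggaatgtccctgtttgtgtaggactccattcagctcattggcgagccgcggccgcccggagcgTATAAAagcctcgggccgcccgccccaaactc
SMAD6, chr15:66701986-66702235, plus strand: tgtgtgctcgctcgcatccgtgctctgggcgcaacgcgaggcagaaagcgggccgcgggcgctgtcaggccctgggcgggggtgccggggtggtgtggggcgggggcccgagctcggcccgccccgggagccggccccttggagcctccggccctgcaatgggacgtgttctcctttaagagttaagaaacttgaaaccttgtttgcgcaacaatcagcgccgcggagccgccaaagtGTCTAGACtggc
SMAD7, chr18:48950966-48951215, minus strand: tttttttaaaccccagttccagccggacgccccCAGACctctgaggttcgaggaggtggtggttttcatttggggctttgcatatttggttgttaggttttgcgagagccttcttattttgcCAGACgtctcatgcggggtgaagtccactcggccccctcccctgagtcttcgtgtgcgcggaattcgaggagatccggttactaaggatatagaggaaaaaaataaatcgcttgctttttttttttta

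RefSeq promoters were found for 43 of the 48 genes, all but CCN1, BMP7, BMP2, SKI and BMP1. In the 250 bases before any listed start, CAGAC or its reverse complement GTCTG was present in 21 of the 43 genes (48.8%), against 42.8% of 27305 genes in the table. GTCTAGAC was present only in SMAD6, 12 bases before its start, against 0.231% of all genes in the table. The GC-rich SMAD motif GGCGCC was present in 16 genes (37.2%, against 19.0% of all) and TATAAA or TTTATA in 10 (23.3%, against 13.1%). These matches describe the letters of the window and nothing about binding in SKOV3 cells.

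Of the 48 genes, 26 passed the expression filter and were tested among 11814 genes. The filter required about 5.92 CPM in at least 3 libraries, and none of the 26 passed it through 1 group alone. This does not cover the further pathway genes given below, of which STRAP passed through the controls alone. With edgeR's exact test and the study's threshold of at least 2-fold and a Benjamini-Hochberg adjusted p below 0.05, none of the 26 was called, and every adjusted p was 1. Across all genes tested, 1 was called lower and 1 higher in the knockdown, 0.00846% in each direction. At an unadjusted p below 0.05, none of the 26 was lower and 1 (SMAD9) was higher, against 2.09% of all genes lower and 0.965% higher. The libraries of the 2 groups did not overlap for 2 genes that were lower in the knockdown, ENG and SKIL, which is 7.69% of the 26 against 3.56% of all genes tested. They did not overlap for SMAD9 in the other direction, 3.85% of the 26 against 4.42% of all genes tested. The fold changes lay on both sides of 0, with 14 below and 12 above, and their median was -0.0057 on the log2 scale, beside 0.0038 over all genes tested. Left out of this count are the genes under the filter, which include 6 of the 7 target genes.

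**Figure D1:**
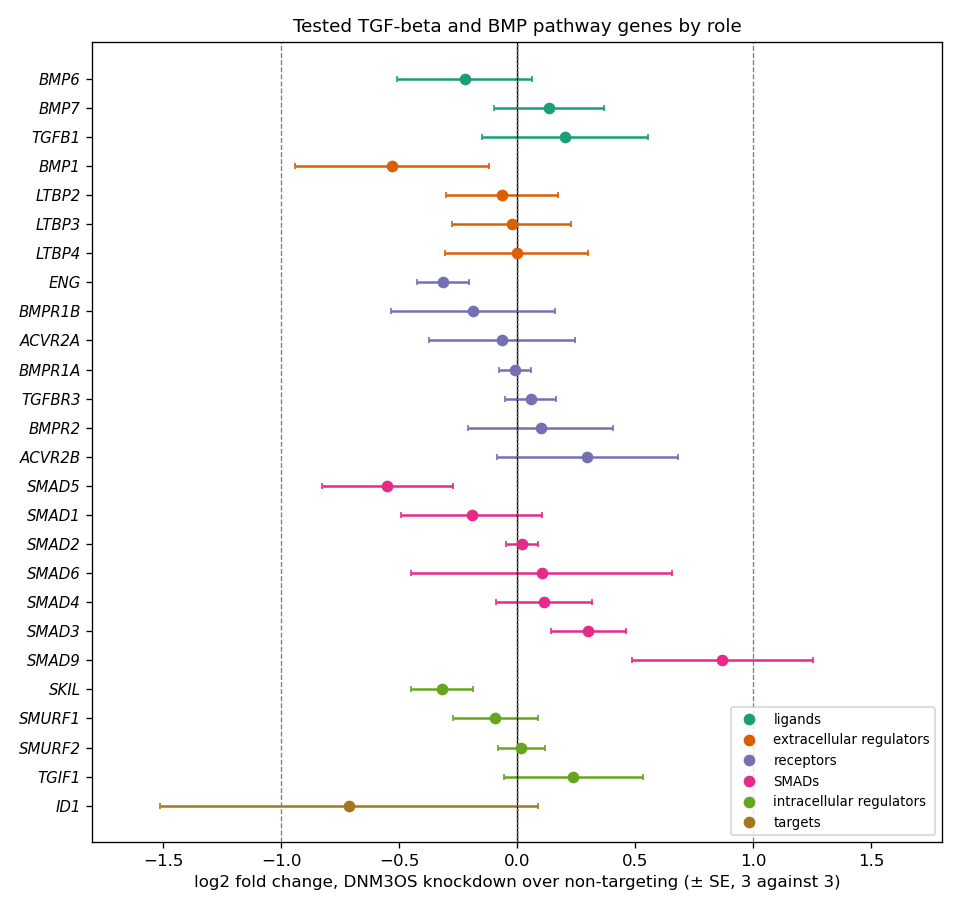
Log2 fold change of each of the 26 tested pathway genes, DNM3OS knockdown over non-targeting control (x axis), with bars of 1 standard error from the spread of 3 against 3 libraries and colours for the role of the gene. The solid line is 0, the dotted line the median of all genes tested and the dashed lines 2-fold; no gene lies beyond 2-fold, and SMAD9 (0.87) and ID1 (-0.71) lie farthest from 0.

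Among the ligands, TGFB1, BMP6 and BMP7 were measurable and the other 6 were not tested. TGFB1, the founding ligand of the family, had 34, 25 and 46 counts in the knockdown and 35, 22 and 36 in the controls. The groups overlapped throughout, with the highest library in the knockdown, and the log2 fold change was 0.20 ± 0.35 (SE, n = 3 against 3). BMP6, a BMP that signals through SMAD1, SMAD5 and SMAD9, had 21, 21 and 20 counts in the knockdown and 24, 16 and 33 in the controls. The knockdown counts lay inside the range of the controls, and the log2 fold change was -0.22 ± 0.29. BMP7 changed by 0.14 on the log2 scale, within its standard error of 0.23. For TGFB1, per-sample TPM (a transcript level scaled by length and library size) ran from 25.6 to 60.9, the highest mean among the ligands. Most of it, 20.1 to 52.6, was on a transcript of 559 bases with no defined coding sequence (ENST00000598758). Its coding transcript ENST00000221930 had 3.83 to 8.30. BMP6 and BMP7 had lower TPM in sum, at 5.55 to 10.4 and 2.05 to 4.06, all on coding transcripts.

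The ligands that were not tested were TGFB2 with 2 to 8 counts in a library, TGFB3 with 8 to 34, BMP4 with 1 to 7, the activin beta A subunit INHBA with 3 to 5, INHBB with 0 to 1 and BMP2 with 0 to 2. BMP2 had no count in any knockdown library and 2, 1 and 2 in the controls, all of them at or under 3 counts, so no fold is given. For TGFB3 the highest value, 34 counts, was that of knockdown replicate 1, and the other 5 libraries had 8 to 14. No direction was readable for these 6 ligands at this depth.

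The extracellular regulators included the latent TGF-beta binding proteins, which hold the secreted ligand in the matrix, and all 4 that were tested had fold changes below 0. BMP1, a metalloproteinase that processes procollagens and cleaves BMP antagonists, had 22, 9 and 23 counts in the knockdown and 27, 18 and 33 in the controls. Knockdown values overlapped the controls and the log2 fold change of -0.53 ± 0.41 did not pass the test (unadjusted p = 0.230, edgeR's exact test). LTBP2 had 45, 49 and 31 counts against 54, 38 and 39, and LTBP4, the most abundant of the group by TPM, had 41, 16 and 23 against 35, 18 and 25. Neither pattern separated the groups, with log2 fold changes of -0.06 ± 0.24 and -0.0025 ± 0.30, and LTBP3 stood at -0.02 ± 0.25. The median of the 4 was -0.04. Below the filter, LTBP1 had 1, 8 and 3 counts in the knockdown and 9, 8 and 7 in the controls, FST (follistatin, which binds activin) had 0 to 2, and GREM1 (gremlin, a BMP antagonist) had no count in any library. A count of 0 allows up to 3 counts in a library, or 1.61 to 1.97 CPM, counting error only.

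Among the receptors, 4 of the 7 tested had fold changes below 0 and 3 above. The type I BMP receptor BMPR1A had 114 to 176 counts and a log2 fold change of -0.0088 ± 0.07. ENG (endoglin, a TGF-beta co-receptor) was the most abundant by TPM, with 41.9, 45.4 and 32.9 TPM in the knockdown and 54.5, 39.4 and 50.8 in the controls. Of this TPM, 22.7 to 36.0 was on a transcript of 663 bases with no defined coding sequence (ENST00000486329). The counts of ENG were 71, 58 and 44 in the knockdown and 80, 62 and 71 in the controls. After TMM scaling these were 33.0, 39.2 and 30.9 CPM against 45.6, 40.6 and 41.8, so that all knockdown libraries lay below all controls, by 1.42 CPM at the closest. The log2 fold change was -0.31 ± 0.11 (unadjusted p = 0.224, edgeR's exact test), and a two-sided exact permutation test gave p = 0.1, the smallest that 3 against 3 can give. In TPM the groups of ENG overlapped, and 8.15% of its exon bases lie opposite to exons of another gene.

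ACVR2B, a type II activin receptor, had 37, 15 and 30 counts in the knockdown and 31, 14 and 21 in the controls, and the groups overlapped (log2 fold change 0.30 ± 0.38). The remaining tested receptors moved by less: BMPR1B by -0.19 ± 0.35, BMPR2 by 0.10 ± 0.31, ACVR2A by -0.06 ± 0.31 and TGFBR3 (betaglycan) by 0.06 ± 0.11. For BMPR1B a single control library decided the sign: replicate 2 held 158 counts against 73 to 136 in the other 5 libraries, and without it the log2 fold change was 0.24. The median of the 7 tested receptors was -0.0088.

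Both signalling receptors of TGF-beta itself fell below the filter. TGFBR1 had 6 to 11 counts and TGFBR2 had 3, 6 and 4 in the knockdown and 10, 5 and 7 in the controls, overlapping between groups. Of the activin and BMP type I receptors, ACVR1 had 0 to 7 counts and ACVR1B 0 to 10. BAMBI, a pseudoreceptor that dampens the pathway, had 0, 0 and 1 counts in the knockdown and 3, 1 and 3 in the controls. These levels do not carry a comparison.

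Of the SMADs, 7 of 8 were tested, the largest share of any role. SMAD2 was by far the most counted gene of the list, with 1141, 813 and 743 counts in the knockdown and 843, 850 and 921 in the controls. After scaling, the libraries lay between 480 and 557 CPM with the groups overlapping, and the log2 fold change was 0.02 ± 0.07. Of its counts, 99.3% were on a transcript of 34526 bases (ENST00000262160), and scaled by length its TPM was 20.5 to 27.4, beside 10.2 to 23.9 for SMAD4. SMAD4, the shared partner, stood at 0.11 ± 0.20 and SMAD3 at 0.30 ± 0.16, with 62, 32 and 39 counts of SMAD3 in the knockdown and 36, 37 and 32 in the controls. Neither passed the test.

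Among the SMADs of the BMP branch, SMAD9 and SMAD5 had fold changes of opposite sign. SMAD9 (chr13:36844831-36920887, minus strand, GRCh38) had 71, 35 and 27 counts in the knockdown and 28, 27 and 14 in the controls. In scaled units these were 33.0, 23.6 and 18.95 CPM against 15.95, 17.7 and 8.24, so that all knockdown libraries lay above all controls, by 1.27 CPM at the closest. The log2 fold change was 0.87 ± 0.38 with an unadjusted p of 0.0200 and an adjusted p of 1 in edgeR's exact test, and the exact permutation p was 0.1. The value depended on single libraries: it was 0.63 (unadjusted p = 0.102) without knockdown replicate 1 and 0.60 (unadjusted p = 0.150) without control replicate 3, both by the same exact test. Knockdown replicate 1, with the highest SMAD9, was also the library with the lowest housekeeping and ribosomal protein levels, and with the ribosomal protein share as a covariate the log2 fold change was 0.49 (unadjusted p = 0.141, edgeR's quasi-likelihood test across all genes). In TPM the groups of SMAD9 overlapped, at 13.2, 5.98 and 4.83 in the knockdown and 6.31, 4.53 and 4.12 in the controls, and the log2 fold change was 0.65 on length-scaled counts (unadjusted p = 0.135, exact test).

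SMAD5 (chr5:136132845-136188747, plus strand) had 25, 30 and 20 counts in the knockdown and 41, 26 and 44 in the controls. Control replicate 2 lay inside the knockdown range, and the log2 fold change of -0.55 ± 0.28 did not pass the test (unadjusted p = 0.129, edgeR's exact test). Scaled by transcript length, TPM was 2.72, 7.16 and 7.59 in the knockdown and 14.2, 10.6 and 15.3 in the controls, with no overlap. The log2 fold change on length-scaled counts was -1.20 (unadjusted p = 0.00720 and adjusted p = 0.873, edgeR's exact test). Part of the control TPM was on short transcripts with few counts: ENST00000509962 (547 bases) had 7.02 and 7.93 TPM from 3.4 and 3.75 counts in control replicates 1 and 3, ENST00000515005 (368 bases) had 7.31 TPM from 1.7 counts in control replicate 2, and both were at 0 in the knockdown. With the ribosomal protein share as a covariate the log2 fold change on plain counts was -0.21. SMAD1, the third BMP-branch SMAD, stood at -0.19 ± 0.30. SMAD5 and SMAD1 each have an annotated antisense gene, over 6.75% and 5.30% of their exon bases.

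The inhibitory SMADs had few counts. SMAD6 had 9, 24 and 8 counts in the knockdown and 11, 16 and 12 in the controls, and its log2 fold change of 0.10 ± 0.55 became -0.70 without knockdown replicate 2. SMAD7 (chr18:48919853-48950965, minus strand) did not pass the filter. It had 2, 5 and 4 counts in the knockdown and 8, 10 and 12 in the controls, so that all knockdown libraries lay below all controls. In the fit without a filter the log2 fold change was -1.40 (unadjusted p = 0.0359 and adjusted p = 1, edgeR's exact test), and without knockdown replicate 1 it was -0.93 (unadjusted p = 0.147, same exact test). In the fit without that library SMAD7 passed the filter, but through the controls alone. Summed over all SMADs, the 7 tested had 2 fold changes below 0 and 5 above, with a median of 0.10.

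**Figure D2:**
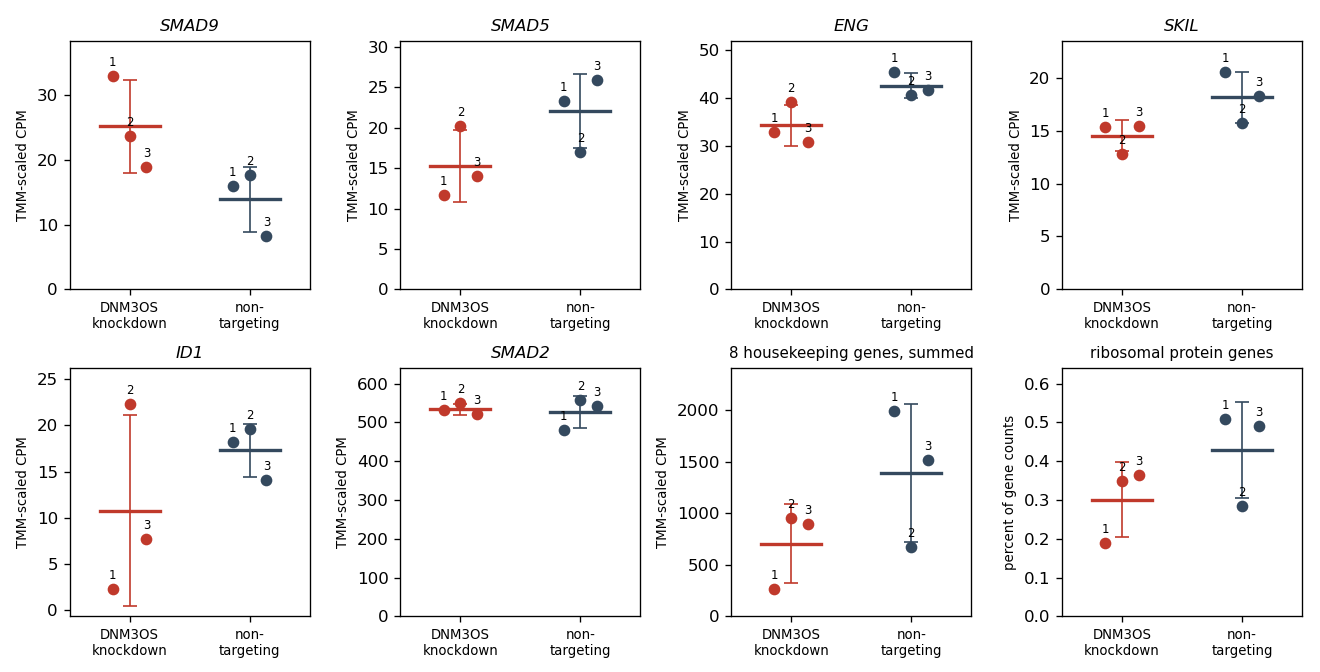
TMM-scaled CPM of 6 pathway genes in each library (points numbered by replicate), with the mean and 1 SD of each group of 3, beside the summed CPM of 8 housekeeping genes and the percent of gene counts on ribosomal protein genes. The housekeeping sum is scaled to library size alone, although its axis is labelled as TMM-scaled. In CPM, SMAD9 is higher and ENG and SKIL lower in every knockdown library, SMAD5 and ID1 overlap, SMAD2 is level, and the last panels show the low values of knockdown replicate 1.

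The intracellular regulators are ubiquitin ligases that mark SMADs and receptors for degradation (SMURF1 and SMURF2) and nuclear co-repressors of SMAD complexes (SKI, SKIL and TGIF1). SKIL (chr3:170357342-170396835, plus strand) had 33, 19 and 22 counts in the knockdown and 36, 24 and 31 in the controls, which scaled to 15.4, 12.8 and 15.4 CPM against 20.5, 15.7 and 18.2. The groups did not overlap on this scale, with the closest libraries 0.27 CPM apart, but they overlapped in TPM, at 3.36, 4.79 and 7.09 in the knockdown and 10.5, 4.35 and 6.93 in the controls. The log2 fold change was -0.32 ± 0.13 (unadjusted p = 0.348, edgeR's exact test; exact permutation p = 0.1). SKI, its close relative, did not pass the filter, with 4, 3 and 7 counts in the knockdown and 9, 11 and 12 in the controls. Its groups did not overlap either, and the fit without a filter gave -1.17 (unadjusted p = 0.0460 and adjusted p = 1, exact test), or -0.87 without knockdown replicate 1. In the fit without that library SKI passed the filter through the controls alone.

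TGIF1 had 71, 80 and 62 counts in the knockdown and 71, 40 and 73 in the controls, overlapping, with a log2 fold change of 0.24 ± 0.29. With the ribosomal protein share as a covariate it was 0.61 (unadjusted p = 0.0119 and adjusted p = 0.980, edgeR's quasi-likelihood test), the smallest unadjusted p of any list gene in that fit. SMURF2 had 92, 71 and 65 counts against 87, 61 and 76, and SMURF1 had 46 to 105, and their log2 fold changes of 0.02 ± 0.10 and -0.09 ± 0.18 were within the standard error. By TPM, SMURF2 was the highest gene of the whole list, at 91.0 to 132, of which 78.9 to 123 was on a transcript of 339 bases with no defined coding sequence.

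Of the target genes, only ID1 (chr20:31605283-31606515, plus strand), which encodes an inhibitor of differentiation induced directly by BMP-activated SMADs, passed the filter. It had 5, 33 and 11 counts in the knockdown and 32, 30 and 24 in the controls. Knockdown replicates 1 and 3 lay below every control and replicate 2 above every control. The log2 fold change of -0.71 ± 0.80 did not pass the test (unadjusted p = 0.225, edgeR's exact test), and it ranged from -1.87 without knockdown replicate 2 to -0.19 without knockdown replicate 1. The lowest ID1 count was in the library with the lowest housekeeping level, and the covariate fit gave -0.36.

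The other targets had few counts. ID2 had 4, 3 and 1 in the knockdown and 1, 1 and 1 in the controls, ID3 had 1, 10 and 3 against 2, 4 and 4, and ID4 had 2, 10 and 2 against 8, 5 and 5. Knockdown replicate 2, the highest library for ID1, was also the highest for ID3 and ID4. CCN1, a matricellular protein, had 4, 11 and 7 counts against 2, 3 and 5, CCN2 had 3, 5 and 10 against 5, 3 and 13, and TGFBI (TGF-beta-induced protein) had 2, 1 and 5 against 9, 3 and 7. Fitted without a filter, the groups failed to overlap for 5 of 47 list genes that were lower in the knockdown, SMAD7, ENG, BMP2, SKIL and SKI (10.6%, against 3.17% of 22748 genes), and for 2 that were higher, ID2 and SMAD9 (4.26%, against 4.25%). Of these 7, only ENG, SKIL and SMAD9 had more than 12 counts in any library, and the ID2 separation rests on scaling, since replicate 3 tied with the controls at 1 count.

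**Figure D3:**
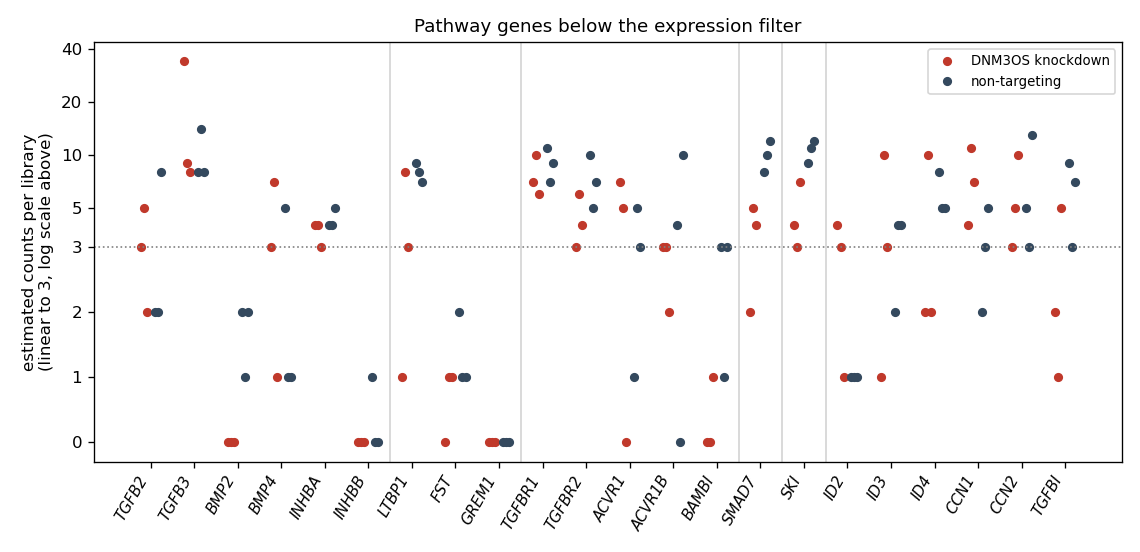
Estimated counts in each library (points) of the 22 pathway genes below the expression filter, ordered by role with grey lines between roles, on an axis that is linear up to 3 counts (dotted line, the limit a count of 0 allows) and logarithmic above. SMAD7, SKI and BMP2 are the genes in which all knockdown libraries (red) lie below all control libraries (dark).

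Counts were split between coding and other transcripts. Summed over the 26 tested genes, 85.9% of the counts were on transcripts annotated as protein-coding, 4.68% on retained introns, 4.45% on nonsense-mediated decay forms and 4.95% on forms with no defined coding sequence. For 7 of the 26 genes (26.9%) less than 50% was on coding transcripts, against 33.0% of the 10612 tested protein-coding genes. SMURF2 had 11.4% on coding transcripts, LTBP3 11.98%, BMP1 13.8%, SMAD9 26.3%, LTBP4 30.4%, TGFBR3 42.1% and SMAD6 44.9%. Of the SMAD9 counts, 71.7% were assigned to 1 nonsense-mediated decay transcript (ENST00000399275). It took 42.2, 34.9 and 26.9 estimated counts in the knockdown and 27.3, 0.67 and 12.7 in the controls. The coding transcript ENST00000379826 took 26.8 counts in knockdown replicate 1 and 26.3 in control replicate 2 and was at 0 elsewhere. The assignment differed between libraries, so the SMAD9 difference cannot be placed on either form. ID1, BMPR1A, BMPR1B, BMP6, BMP7 and SMAD2 had 100% of their counts on coding transcripts.

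**Figure D4:**
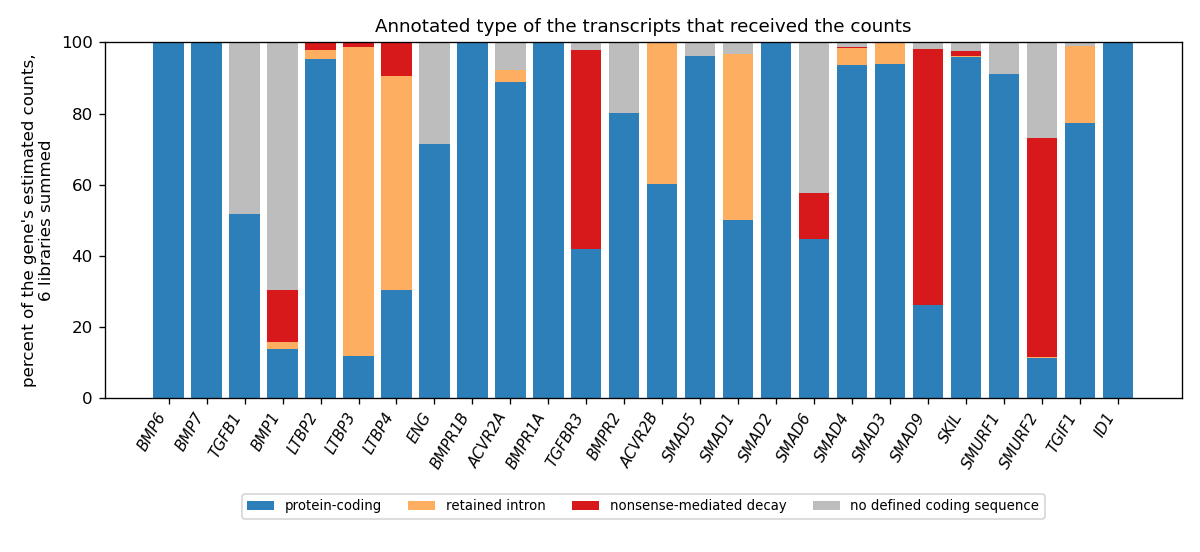
Percent of the estimated counts of each tested pathway gene (6 libraries summed) by the annotated type of the transcript that received them, ordered by role as in the plot of fold changes. SMURF2, LTBP3, BMP1 and SMAD9 have the smallest coding shares, and 6 genes are at 100%.

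A wider list of 89 further pathway genes gave 47 tested genes, 27 with fold changes below 0 and 20 above, a median of -0.08 and none called. By group, the numbers below and above 0 were 6 and 6 for ligands and antagonists, 4 and 3 for activation factors and receptors, 15 and 3 for intracellular components and 2 and 8 for TGF-beta responsive genes, with medians of -0.07, -0.04, -0.18 and 0.05. Over all genes tested, 5837 were below 0 and 5977 above, and the numbers by group were not tested. At an unadjusted p below 0.05 in edgeR's exact test, 3 of the 47 were lower (6.38%, against 2.09% of all genes tested) and 1 was higher (2.13%, against 0.965%). STRAP, which binds TGF-beta receptors and SMAD7, had 4, 8 and 3 counts in the knockdown and 23, 11 and 14 in the controls. Every knockdown library of STRAP was under the 5.92 CPM of the filter. It was tested through the controls alone, the group where it was high, and the 6.38% includes it. No library overlapped, and the log2 fold change was -1.64 ± 0.42 (unadjusted p = 0.00342 and adjusted p = 1), or -1.16 in the covariate fit (unadjusted p = 0.0570, quasi-likelihood test across all genes with edgeR), and without control replicate 1 it was -1.33 (unadjusted p = 0.0518, exact test). CREBBP, an acetyltransferase that SMADs recruit, had 41, 23 and 19 counts against 35, 37 and 62 and did not overlap after scaling (-0.73 ± 0.28). Without control replicate 3 the log2 fold change of CREBBP was -0.45 (unadjusted p = 0.240, exact test), and without knockdown replicate 2 or 3 the unadjusted p was 0.0845 or 0.114 by the same exact test.

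DAND5, an antagonist of NODAL, had 19, 7 and 14 counts in the knockdown and 17, 28 and 26 in the controls, with overlap (-0.87 ± 0.37). Without knockdown replicate 2 its log2 fold change was -0.63 (unadjusted p = 0.221), without control replicate 2 it was -0.65 (p = 0.182), and without control replicate 3 it was -0.82 (p = 0.123), all by the exact test. FN1 (fibronectin), a matrix gene induced by TGF-beta in many cells, was the most abundant of the responsive genes and the only one of the 47 that was higher at that p, with 479, 203 and 196 counts against 158, 192 and 171. The groups of FN1 did not overlap after scaling (0.66 ± 0.27), but the highest value came from knockdown replicate 1, and without that library the log2 fold change was 0.39 (unadjusted p = 0.0624, exact test). Without control replicate 1 or 3 the unadjusted p of FN1 was 0.102 or 0.0739 by the same exact test, and the covariate fit gave 0.29 (unadjusted p = 0.109, edgeR's quasi-likelihood test across all genes). The most abundant gene in each of the other groups differed little, GDF11 by 0.03, RGMA by 0.16 and E2F5 by -0.18, all with overlapping libraries. SNAI1, a transcription factor of the epithelial-to-mesenchymal transition, had 2 counts in control replicate 1 and 0 in the other 5 libraries.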

How the data were processed

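Libraries of SKOV3 total RNA (TruSeq Stranded Total RNA with Ribo-Zero Gold) were quantified by the authors with kallisto 0.43.0 against Ensembl transcripts of GRCh38. The deposited values per transcript were an estimated count, not normalized, a TPM and an effective length. The strand option is not given in the sources used here. Of 173259 transcripts, 155518 matched GENCODE release 44 by identifier, and the other 17741, with 4.79% to 6.38% of a library's counts, were left out. Estimated counts and TPM were added up by gene, and the counts were rounded to whole numbers. The chi-square statistic between libraries was computed on these counts, and no replicates looked like 1 library deposited again.

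Genes were filtered with filterByExpr of edgeR 4.0.16 (minimum count 10, R 4.3.3), scaled by TMM and compared with edgeR's exact test after the study's methods, with Benjamini-Hochberg adjustment over all 11814 genes tested. A gene was called at a fold of at least 2 with an adjusted p below 0.05. The standard error of a log2 fold change was computed from the replicates' log2 CPM with a prior count of 2. CPM values given for single genes use TMM-scaled library sizes. The filter and the summed CPM of housekeeping and marker genes use library sizes without TMM. The scripts were tested on simulated data.

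The list genes, the role groups, the 89 further pathway genes and the marker lists were chosen with earlier results of these data known, so no test over a list was made and no p was adjusted over a list alone. Named with their fold change were all tested list genes. Values by library were given for the 2 genes with the smallest unadjusted p in each role, those whose groups did not overlap and the most abundant in each role by mean TPM, and, of the further genes, for those with an unadjusted p below 0.05. Fold changes were given for the most abundant by CPM in each further group. SMAD3, BMPR1B, SMAD6, SNAI1 and the genes under the filter were given values by library or ranges after these had been seen. The alternatives tried were the quasi-likelihood test of edgeR, alone and with a replicate block, DESeq2 1.42.0, RLE scaling, no filter or 1 CPM in 3 libraries, length-scaled TPM counts, log2(TPM + 1) with limma 3.58.1, the unannotated transcripts kept, list genes without opposite-strand overlap, a threshold with no minimum fold, and each library left out. A quasi-likelihood fit that took as covariate the log2 share of 77 ribosomal protein genes in the counts was added after seeing the data. Overlap with opposite-strand exons was taken from GENCODE release 44 and promoters from RefSeq (GRCh38.p14).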

Additional observations from a re-analysis of the deposited data

How the results depend on the processing

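Below the filter were 22 of 48 list genes, TGFBR1, TGFBR2 and 6 of the 7 target genes among them. The counts on BEST1, FTH1, GAPDH and ACTB have the pattern of counting against the opposite strand, so the levels may be largely those of opposite-strand reads, which was not tested. Whether the replicate numbers pair the libraries cannot be decided from 3 libraries in each group. Same-numbered libraries correlated at -0.40, -0.34 and 0.23 in their deviations from the group means. The other combinations correlated at -0.41 to 0.53, the highest being knockdown replicate 1 with control replicate 2. No list gene was called under any alternative, the threshold without a minimum fold included, with a smallest adjusted p of 0.460 (SMAD9 without control replicate 2). Of 416 fold changes of single genes, 365 kept their sign and 51 did not. The sign held under every alternative for 9 of the 26 genes, and for the other 17 it changed at least once. The cause of these changes was not tested.

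With the replicate block in the quasi-likelihood fit, 0 of all genes were called lower and 0 higher, SMAD6 stood at -0.030, and no other list gene changed sign. The quasi-likelihood test without the block and DESeq2 also called 0 lower and 0 higher. Without a filter, 2 of all genes were called lower and 0 higher, 2 list genes were lower at an unadjusted p below 0.05, 5 were lower and 2 higher without overlap, LTBP4 stood at 0.0025, and the medians were -0.090 for all list genes, -0.21 for ligands and -0.29 for extracellular regulators. With 1 CPM in 3 libraries, 2 of all genes were called lower, and 2 list genes were lower at an unadjusted p below 0.05 and 4 without overlap. Among the alternatives, shares over all genes are given only for groups without overlap, without a filter or with a library left out. Other counts of list genes under the alternatives cannot be read against a background. With transcripts outside the annotation kept, 4 of all genes were called lower and 2 higher.

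With length-scaled TPM counts, 3 of all genes were called lower and 0 higher, 1 list gene (SMAD5) was lower at an unadjusted p below 0.05 and 0 were higher without overlap. The medians were -0.090 for all list genes and -0.44 for extracellular regulators, and TGFB1 (-0.023), LTBP2 (0.17), TGFBR3 (-0.46), ACVR2A (0.25), SMAD2 (-0.16) and SMAD4 (-0.20) had the other sign. With log2 TPM and limma, 0 of all genes were called lower and 0 higher, 1 list gene was lower and 0 higher at an unadjusted p below 0.05, and 1 was lower and 0 higher without overlap. The medians were -0.093 for all list genes and -0.084 for SMADs, and TGFB1 (-0.074), LTBP2 (0.13), TGFBR3 (-0.31), BMPR2 (-0.0092), ACVR2A (0.15), SMAD2 (-0.14) and SMAD4 (-0.24) had the other sign. With the ribosomal protein covariate, 0 of all genes were called lower. At an unadjusted p below 0.05 in that quasi-likelihood fit, BMPR1B was lower (-0.49) and TGIF1 higher (0.61) among the list genes. BMP6 (0.15), BMP7 (-0.022), LTBP2 (0.096), BMPR1A (0.0035), BMPR2 (-0.062), SMAD1 (0.19) and SMAD2 (-0.013) had the other sign. Leaving out list genes overlapped on the opposite strand gave a median of 0.078.

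With each library left out in turn, 0 to 3 of all genes were called lower and 0 to 1 higher. Among list genes, 0 to 2 were lower and 0 to 1 higher at an unadjusted p below 0.05, and 2 to 8 were lower and 1 to 2 higher without overlap, the 8 without knockdown replicate 2. With fewer libraries groups overlap less often: over all genes tested in these fits, 5.996% to 15.0% were lower and 6.72% to 12.8% higher without overlap, and without knockdown replicate 2 it was 8.85% lower, against 26.7% of the 30 list genes tested there. The filter was run anew in each fit. SMAD7 and SKI entered the fit without knockdown replicate 2 through the controls alone, so their part of the 26.7% was favoured by the filter. The median ranged from -0.097 to 0.12 for SMADs and from -0.29 to 0.016 for intracellular regulators. Signs changed for TGFB1 (-0.18 to 0.41), BMP6 (-0.40 to 0.043), BMP7 (-0.033 to 0.31), LTBP2 (-0.30 to 0.079), LTBP3 (-0.21 to 0.20), LTBP4 (-0.20 to 0.22), TGFBR3 (-0.031 to 0.14), BMPR1A (-0.047 to 0.060), BMPR1B (-0.36 to 0.24), BMPR2 (-0.097 to 0.30), ACVR2A (-0.36 to 0.11), SMAD1 (-0.44 to 0.058), SMAD2 (-0.047 to 0.071), SMAD4 (-0.049 to 0.25), SMAD6 (-0.70 to 0.48), SMURF1 (-0.29 to 0.026) and SMURF2 (-0.047 to 0.093).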
